A study of Mus musculus with 6 samples.

Results

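The genes of the proteasome, the protease that degrades ubiquitin-tagged proteins, were followed in RNA from tumor-associated macrophages. Members were chosen by name alone, as the genes whose symbol starts with Psma to Psmg followed by a digit, with pseudogenes left out and with the interferon-inducible catalytic subunits Psmb8, Psmb9 and Psmb10 kept apart. This rule gave 47 of the 22377 genes in the count table, and all 47 passed the filter on low counts that left 13884 genes for testing. Of the 47, 45 encode subunits of the particle, its assembly factors, its activators or its inhibitor. The remaining members are Psmc3ip, a meiotic recombination factor that carries the symbol only because it binds Psmc3, and Psme3ip1, a partner of Psme3. The thymus-specific subunit Psmb11 was not in the table used here.

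The cells were macrophages, sorted as positive for CD45, CD11b and F4/80, from Lewis lung carcinoma (LLC) tumors, grown under the skin of Npm1+/+ and Npm1+/- mice of both sexes from cells of this mouse lung carcinoma line. The mice were 6 to 8 weeks old when the cells were injected, and tumors were taken 2 weeks later. The study names no promoter or Cre line that would limit the Npm1 heterozygosity to macrophages, and gives no other allele. The 6 libraries form 2 groups of 3, labelled wt and ko, and no drug or other treatment is stated for either group. The sample labels call the ko group a knockdown, name the material as tumor tissue, and describe a TRIzol extraction and a small RNA library, whereas the study describes sorted cells, a column kit and a cDNA kit for small inputs. A figure legend of the study also gives fewer mice per group than there are libraries, so libraries of a group may share an animal, and the p-values would then be too small. These accounts were not reconciled here, and the groups are called wt and labelled ko.

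The proteasome is built from a barrel-shaped core particle and a regulatory particle that caps it. The core has outer rings of alpha subunits, which gate the channel, and inner rings of beta subunits, of which Psmb5, Psmb6 and Psmb7 carry the proteolytic sites. The base of the regulatory particle holds the Psmc ATPases, which unfold the substrate, and the lid removes its ubiquitin. Macrophages use the particle for protein turnover, for the activation of NF-kB and for making the peptides that are presented on MHC class I. The transcription factor Nfe2l1 is known to raise the transcription of subunit genes together when proteasome activity is limiting, through elements with the core TGACNNNGC.

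Because coordinate control of these genes is known to act at their promoters, the 250 bases before the start were searched on both strands in the RefSeq promoter table (GRCm38.p6), where 39 of the 47 members were matched by symbol. The other 8 (Psma8, Psmb1, Psmb2, Psmb7, Psmc3, Psmd3, Psmd7 and Psmg2) were not in it and were not searched. The letters TGACNNNGC were found before 5 of the 39 members (12.8%), Psmb5, Psmb6, Psmc6, Psmd9 and Psmd12, against 11.5% of all genes in that table. CCAAT, the core of the element bound by NF-Y, was found before 14 (35.9%), against 37.5% of all genes. The letters TTCNNNGAA were found before Psmg1 only (2.6%), against 8.1% of all genes. These shares describe windows of the same length, and a match is not a measured binding site. No searched motif overlaps another in the windows below. The windows show TGACNNNGC before the core proteases Psmb5 and Psmb6, the ATPase Psmc6 and the lid subunit Psmd12. They also show the CCAAT before Psma3, the alpha subunit with the highest estimate, and TTCNNNGAA before the assembly factor Psmg1. CCAAT was also found before the alpha subunits Psma1, Psma2, Psma6 and Psma7, whose windows are not shown. Of these, Psma1, Psma2 and Psma7 had negative estimates (−0.24, −0.06 and −0.13, TMM factors), so the motif did not go with a direction. Each runs 5′ to 3′ on the strand of its gene, with the motif in capitals, and lies before the annotated RefSeq start. By the GENCODE M21 coordinates each window shown lies outside the gene it precedes, except that the 3′ end of the Psmb5 window lies in Psmb5. The Psmd9 window (chr5:123228139-123228187), counted above but not shown, lies inside Psmd9 by those coordinates (chr5:123169413-123250131). Overlap of the windows with other genes is not given.
Psmb5 (chr14:54618014-54618062, minus strand, motif from 47 bases before the start): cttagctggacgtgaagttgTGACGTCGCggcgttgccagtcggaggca
Psmb6 (chr11:70525328-70525356, plus strand, motif from 9 bases before the start): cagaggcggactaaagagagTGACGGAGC
Psmc6 (chr14:45329577-45329625, plus strand, motif read on the other strand, from 227 bases before the start): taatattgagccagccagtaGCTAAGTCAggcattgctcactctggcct
Psmd12 (chr11:107479278-107479309, plus strand, motif read on the other strand, from 247 bases before the start): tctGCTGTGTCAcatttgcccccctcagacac
Psma3 (chr12:70974464-70974508, plus strand, motif from 139 bases before the start): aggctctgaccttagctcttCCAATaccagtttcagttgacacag
Psmg1 (chr16:95991175-95991210, minus strand, motif from 243 bases before the start): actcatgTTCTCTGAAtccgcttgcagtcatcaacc

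Libraries held 36550775 to 38147320 counts. Values per library below are counts scaled to a common library size (CPM) after TMM scaling, which corrects the library totals for a few strongly changed genes. Npm1, the targeted gene, was at 142, 380 and 381 CPM in the wt libraries and at 441, 499 and 343 CPM in the libraries labelled ko, so its mRNA did not separate the groups and was not lower under the ko label (log2 difference 0.51 ± 0.36 SE, adjusted p = 0.436, edgeR). Every direction given below therefore rests on the label. All 12 macrophage marker genes looked for were detected, with a sum of 15602 to 21415 CPM in wt and 9167 to 15610 CPM in the libraries labelled ko. The 14 cell cycle genes summed to 231 to 542 CPM in wt and 548 to 777 CPM in those labelled ko, and the 10 neutrophil genes to 1892 to 2120 and 839 to 1612 CPM. The groups did not overlap in either of these sums. The sums of fibroblast genes (10 genes, 35.8 to 490 CPM in wt, 353 to 696 CPM in those labelled ko), T cell genes (9 of 10 in the table, 26.3 to 132 and 103 to 304 CPM) and epithelial genes (8 of 10, 36.1 to 138 and 129 to 192 CPM) overlapped between the groups, as did those of 8 dendritic cell genes (217 to 373 and 241 to 342 CPM), and 3 epithelial genes (Krt19, Cldn4 and Sftpc) were at or under 3 counts in every library. Single genes weighed heavily in some sums. Lyz2 gave 14139 of the 21415 CPM of macrophage genes in wt replicate 1. In wt replicate 2, Col3a1 gave 426 of the 490 CPM of fibroblast genes and Krt8 117 of the 138 CPM of epithelial genes. Acta2 of the fibroblast list was lower in each library labelled ko than in each wt library, unlike the sum of its list. The library wt replicate 1 stood apart on the first principal component of all genes. The part of these shifts in the results below was not tested. In bulk RNA, fewer cells of a type and less RNA per cell cannot be told apart.

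No proteasome gene passed the test. With edgeR's quasi-likelihood test and Benjamini-Hochberg adjustment over all 13884 genes, 0 of the 47 members had an adjusted p under 0.05, and 0% of all genes did. At an unadjusted p under 0.05, 1 member, Psmg2, was higher in the libraries labelled ko, against 6.9% of all genes, and 0 members were lower, against 8.31% of all genes. DESeq2 called 108 genes (0.778% of those tested) and 0 members at an adjusted p under 0.05. The differences were small on the log2 scale. For 45 of the 47 members the 95% interval of the difference lay inside a 2-fold change in either direction, as it did for 57.5% of all genes, and for 38 members it lay inside 1.5-fold, as it did for 26.2% of all genes. The exceptions to the 2-fold limit were the sparsely expressed Psma8 and Psmc3ip. These shares were not matched for level, and abundant genes tend to have narrower intervals.

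Values of the members varied little between replicates. The within-group SD of the log2 level had a median of 0.13 over the 47 members and of 0.28 over all genes tested, and 85.8% of all genes had a larger SD than the members' median. Abundant genes vary less, so the same comparison was made for genes with a mean of at least 10 CPM. The medians were then 0.12 for 43 members and 0.20 for 8092 genes. Above that limit the levels were not matched. The lid subunits Psmd11 and Psmd12 were steadiest, with an SD of 0.060 and 0.061. Apart from Psma8 (0.64) and Psmc3ip (0.77), the activator Psme4 was the most variable, with an SD of 0.28.

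**Figure D1:**
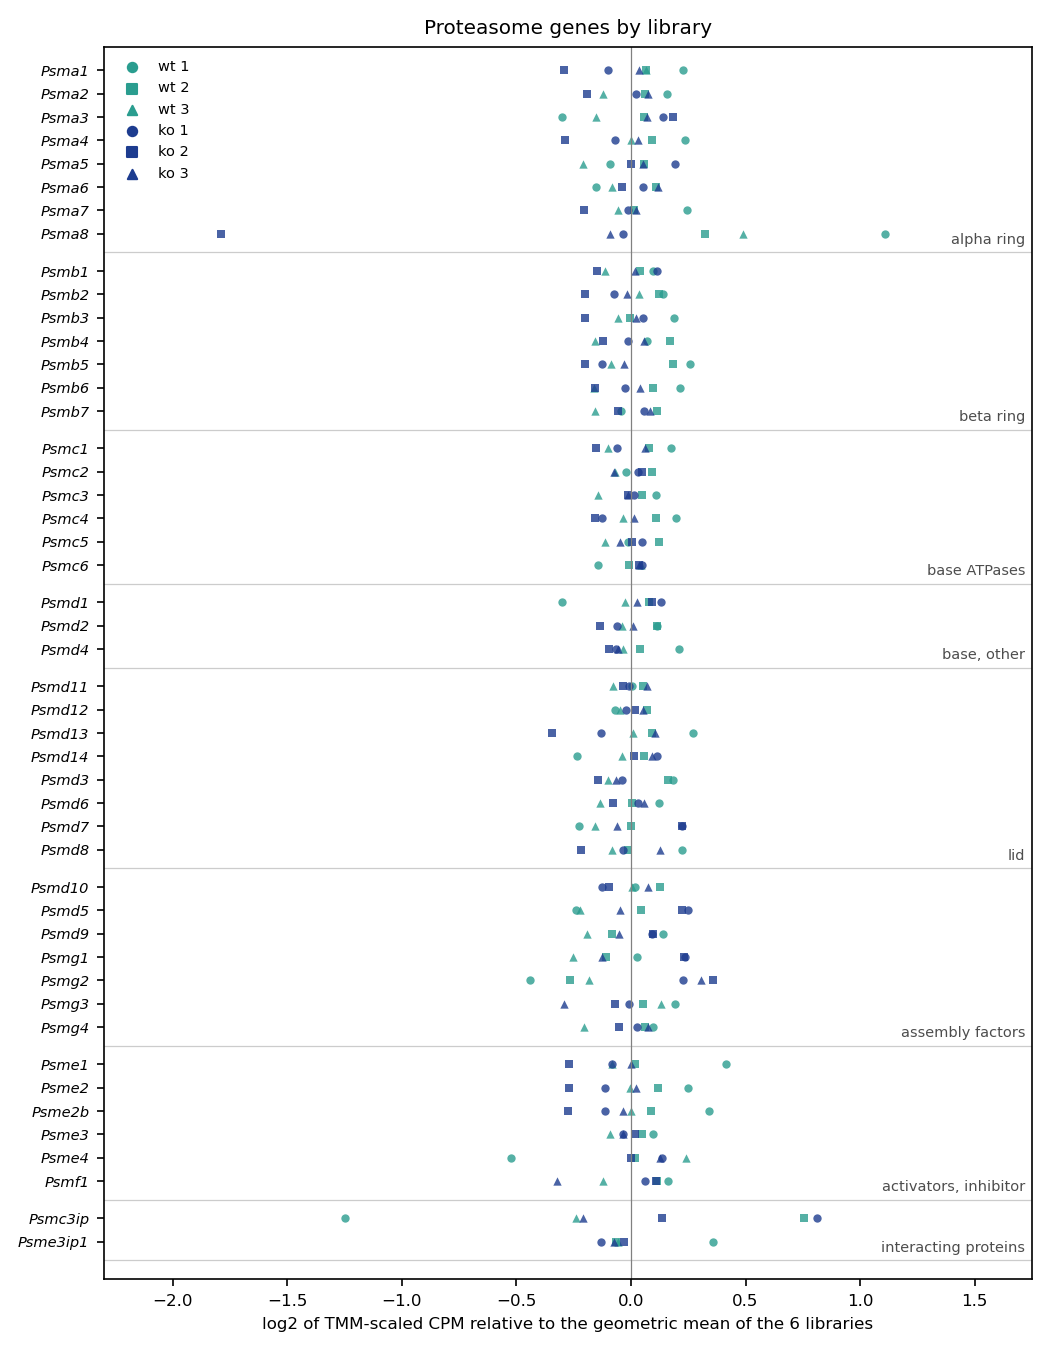
Level of each of the 47 genes in each library, as log2 of TMM-scaled CPM relative to the geometric mean of the 6 libraries (horizontal axis), grouped by role. Green points are wt and blue points are labelled ko, with a symbol for each replicate. Most genes lie within 0.3 of their mean in every library, and the groups separate for Psmg2 but overlap for most others.

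Whether the family as a whole was higher or lower depended on the scaling. Its share of all counts was 0.391%, 0.387% and 0.371% in wt replicates 1, 2 and 3, and 0.417%, 0.424% and 0.392% in those labelled ko (0.383% ± 0.011 against 0.411% ± 0.017, SD, n = 3 each). On this scale each library labelled ko was above each wt library, the closest pair being 0.392% and 0.391%. After TMM scaling the summed level was 4196, 4149 and 3772 CPM in wt and 3971, 3695 and 4042 CPM in those labelled ko (4039 ± 232 against 3903 ± 183 CPM), and the groups overlapped. The TMM factors ran from 0.933 to 0.983 in wt and from 0.969 to 1.15 in the libraries labelled ko, so the scaling moved the groups against each other.

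**Figure D2:**
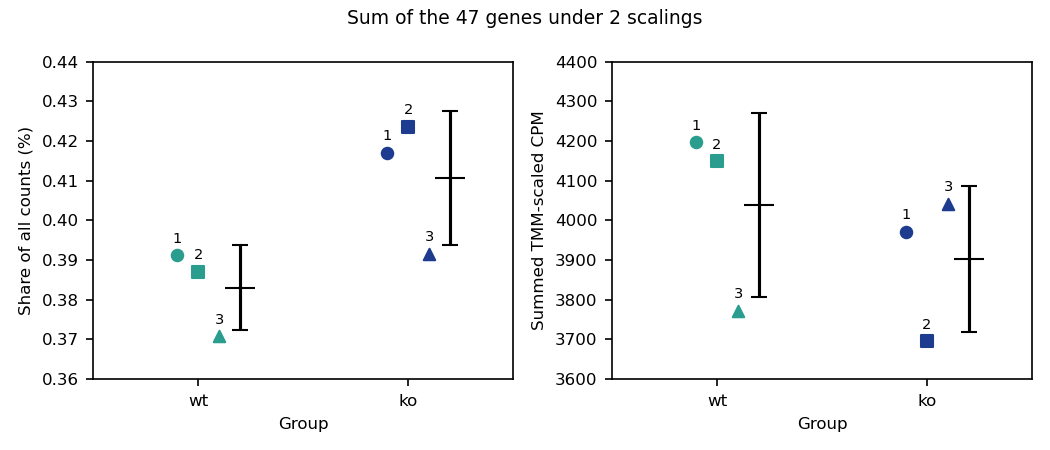
Sum of the 47 genes in each library, as a percentage of all counts (left) and as TMM-scaled CPM (right). Points are libraries, numbered by replicate, bars are the mean and SD of 3 libraries, and the axes do not start at 0. On the left the groups do not overlap and those labelled ko are higher, whereas on the right they overlap.

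The same dependence held gene by gene. With TMM factors the estimate was positive for 19 of the 47 members and for 52.1% of all genes, and the median log2 difference was −0.06 over the members and 0.02 over all genes. With library totals alone, an alternative added after the data were seen, it was positive for 34 members and for 65.8% of all genes, and the medians were 0.09 and 0.17. The median of all genes moved by 0.15 between these scalings, and 15 members changed sign. The distance of the members from the median of all genes was −0.08 in both, and −0.04 without wt replicate 1. With library totals, 6 members were higher at an unadjusted p under 0.05 (Psma3, Psma5, Psmd5, Psmd7, Psmd14 and Psmg2), against 12.4% of all genes, and 0 were lower, against 4% of all genes. Without wt replicate 1 and with TMM factors, these counts were 1 (Psmg2), against 6.81% of all genes, and 0, against 5.38%.

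With TMM factors, all libraries labelled ko lay above all wt libraries for 2 members (Psma3 and Psmg2), against 13.3% of all genes, and below them for 6 (Psma1, Psma8, Psmb2, Psmd4, Psme2b and Psmg3), against 12.6% of all genes. With library totals the counts were 10 members higher, against 18.6% of all genes, and 3 lower (Psma8, Psmb2 and Psme2b), against 6.87%. The shares of members were thus near those of all genes, except for the 2 that were higher with TMM factors. Psma3 and Psmg2 were higher and Psma8, Psmb2 and Psme2b lower with both scalings. Single libraries moved these counts. With TMM factors, 19 members (40.4%) were lower without wt replicate 3, against 19.9% of all genes. Without ko replicate 3, 14 members (29.8%) were lower, against 22.8%. The number higher was 10 (21.3%) without wt replicate 2, against 23.1% of all genes, and 6 (12.8%) without ko replicate 3, against 26.9%. With a library left out, the shares of members were thus not always near those of all genes.

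**Figure D3:**
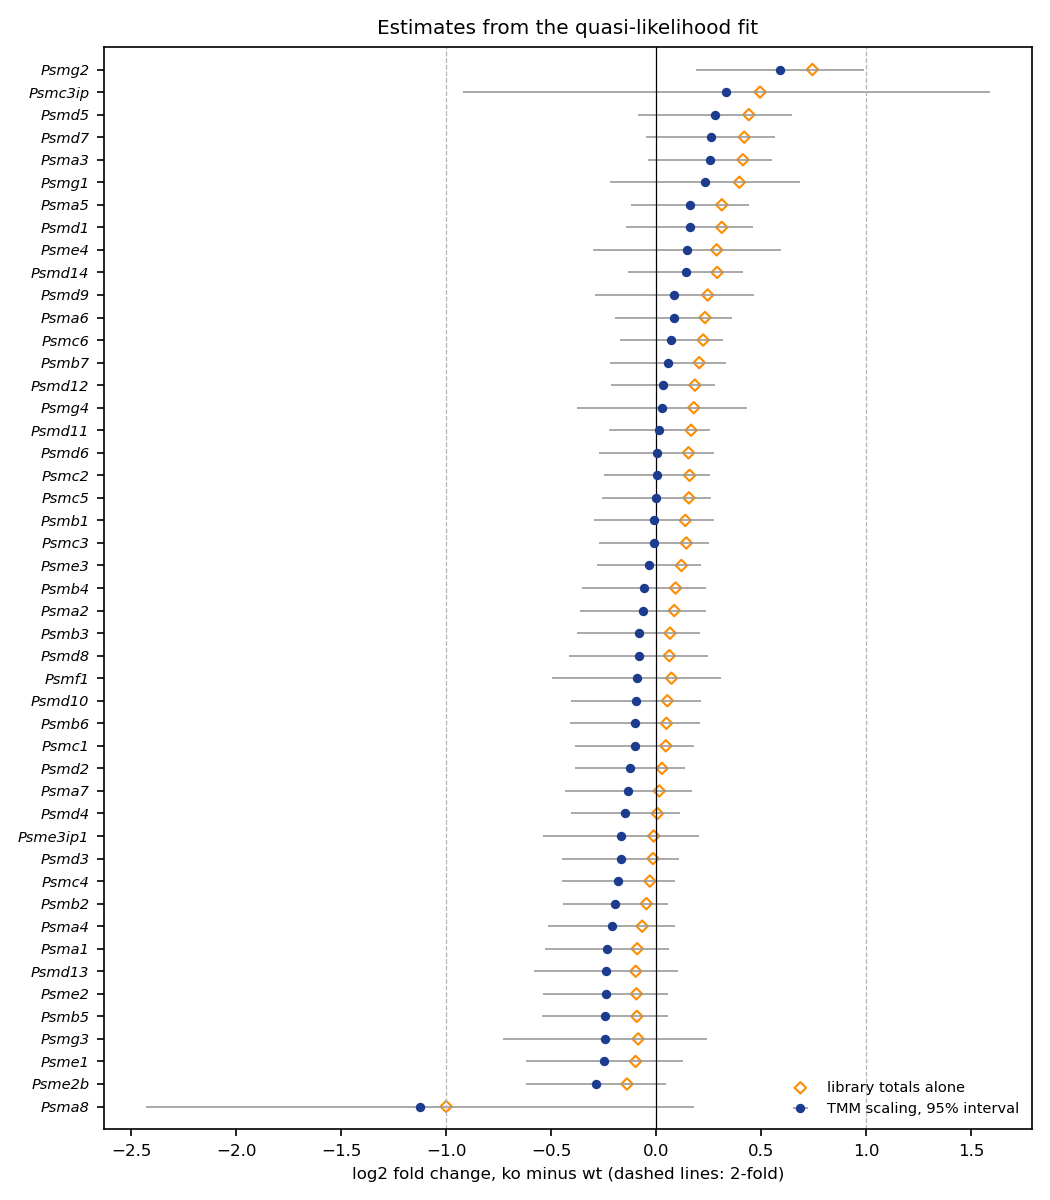
Log2 difference of each gene (ko minus wt) from edgeR's quasi-likelihood fit, ordered by size. Filled points and lines are the estimate and 95% interval with TMM factors, open diamonds the estimate with library totals alone, and dashed lines mark a 2-fold change. The interval excludes 0 for Psmg2 only, and each open diamond lies to the right of its filled point.

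In the alpha ring, which gates entry into the core, 3 of 8 members had a positive and 5 a negative estimate (median −0.10, TMM factors, and 0.05 with library totals). The highest was Psma3 (NCBI Gene 19167, chr12:70974621-70996347 in GRCm38), at 95.2, 122 and 106 CPM in wt and 129, 133 and 123 CPM in the libraries labelled ko. The groups did not overlap, but 122 and 123 CPM were close, and the difference of 0.26 ± 0.13 (SE) on the log2 scale did not pass (adjusted p = 0.341, edgeR). It was 0.17 without wt replicate 1. Psma3 overlaps the gene 3110056K07Rik of the count table, and 22.0% of its 50-base stretches occur in another gene, so its counts are uncertain. Its promoter window with a CCAAT is shown above. Psma1 had the lowest estimate of the ubiquitously expressed alpha subunits, at 129, 115 and 115 CPM in wt and 102, 89.6 and 113 CPM in those labelled ko (−0.24, interval −0.53 to 0.06). Psma8, the testis-specific alternative to Psma7, was close to background with 38, 22 and 26 counts in wt and 19, 6 and 17 counts in those labelled ko. Its estimate of −1.13 ± 0.56 (SE) rests on these few counts (adjusted p = 0.342).

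In the beta ring, 1 of 7 estimates was positive and 6 were negative with TMM factors (median −0.08), whereas 5 were positive with library totals (median 0.07). Psmb5, the subunit with the chymotrypsin-like site and the target of bortezomib, was at 93.8, 89.2 and 73.8 CPM in wt and 71.9, 68.2 and 76.8 CPM in the libraries labelled ko. The third library of each group lay inside the range of the other group, and the difference was −0.24 (interval −0.54 to 0.06, adjusted p = 0.355). Without wt replicate 3 it was −0.36, with an unadjusted p under 0.05. Psmb6, which carries the caspase-like site, was at 97.1, 89.5 and 74.9 CPM in wt and 82.4, 75.2 and 86.0 CPM in those labelled ko (−0.10, interval −0.41 to 0.21). Psmb7, which carries the trypsin-like site, was at 134, 150 and 124 CPM in wt and 144, 133 and 147 CPM in those labelled ko (0.05, interval −0.22 to 0.33). For both genes the groups overlapped, and the estimate of Psmb6 was 0.05 with library totals and −0.02 without wt replicate 1. Thus none of the 3 catalytic subunits differed beyond the spread between replicates, and the intervals left room for at most a 1.5-fold change. Of Psmb5's 50-base stretches, 54.1% occur in other genes, so reads could be shared.

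The ATPases of the base form the unfolding ring. Their 6 estimates ran from −0.18 to 0.07 with a median of −0.01 (0.15 with library totals, −0.08 without wt replicate 3). Psmc6 (chr14:45329788-45349705) had the highest, at 75.2, 82.5 and 85.7 CPM in wt and 85.8, 85.0 and 85.1 CPM in those labelled ko. Its promoter window holds the letters TGACNNNGC, as does that of Psmb5, which had the lowest estimate of the beta ring. Psmc4 had the lowest, at 84.6, 79.5 and 72.0 CPM in wt and 67.5, 66.2 and 74.5 CPM in those labelled ko (−0.18, interval −0.45 to 0.09). Neither pair of groups was separate.

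Of the other base subunits, the scaffold Psmd1 was at 102, 133 and 123 CPM in wt and 137, 134 and 128 CPM in the libraries labelled ko (0.16, interval −0.14 to 0.46). Wt replicate 1 was lowest, the groups overlapped, and the estimate was 0.05 without that library. The ubiquitin receptor Psmd4 was at 136, 121 and 115 CPM in wt and 112, 110 and 113 CPM in those labelled ko, which did not overlap but left 115 and 113 CPM side by side (−0.15, interval −0.41 to 0.11). Its estimate was −0.08 without wt replicate 1 and 0.01 with library totals, so its direction depends on the scaling. Psmd2, the other large scaffold, gave −0.12 (interval −0.39 to 0.14).

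The lid, which holds the deubiquitinase Psmd14, had 5 positive and 3 negative estimates (median 0.01, with −0.06 without wt replicate 3 and 0.16 with library totals). Psmd7, the structural partner of Psmd14, was at 48.5, 56.8 and 51.0 CPM in wt and 66.3, 66.3 and 54.4 CPM in the libraries labelled ko. Replicates 1 and 2 of the latter were above all wt libraries and replicate 3 was between them (0.26 ± 0.13 SE, adjusted p = 0.347). Psmd13 had the lowest estimate, at 89.1, 78.9 and 74.4 CPM in wt and 67.5, 58.3 and 79.5 CPM in those labelled ko (−0.24, interval −0.58 to 0.10), with estimates of −0.14 without ko replicate 2 and −0.37 without ko replicate 3. Psmd14 itself gave 0.14 (interval −0.13 to 0.42), and Psmd11, Psmd12 and Psmd6 all lay between 0.00 and 0.03.

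Assembly factors help the rings and the base to form and leave before the particle is complete. Of their 7 estimates 5 were positive, with a median of 0.09 (0.24 with library totals). This median was 0.18 without wt replicate 1 and turned to −0.0016 without wt replicate 3. Psmg2 (NCBI Gene 107047), which pairs with Psmg1 as a chaperone of the alpha ring, was the member with the smallest p. It was at 7.20, 8.15 and 8.61 CPM in wt (256, 289 and 322 counts) and 11.4, 12.6 and 12.1 CPM in the libraries labelled ko (450, 526 and 442 counts). All 3 libraries labelled ko were above all wt libraries, with a gap wider than the range within either group. The difference was 0.59 ± 0.17 (SE) on the log2 scale (interval 0.19 to 0.99, adjusted p = 0.328, edgeR). It stayed between 0.50 and 0.74 in every alternative run, with an adjusted p of 0.258 to 0.701 in edgeR and of 0.0487 to 0.612 in DESeq2. The smallest value came with DESeq2 without wt replicate 3, where 4.42% of all genes were called. With all 6 libraries DESeq2 gave 0.066. The part that the higher cell cycle sum in the libraries labelled ko has in this value was not tested.

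The partner of Psmg2 gave a smaller estimate. Psmg1 was at 9.42, 8.57 and 7.75 CPM in wt and 10.9, 10.9 and 8.48 CPM in those labelled ko (0.23, interval −0.22 to 0.69), with overlapping groups. Psmg3, which pairs with Psmg4, was at 6.50, 5.89 and 6.23 CPM in wt and 5.65, 5.42 and 4.65 CPM in those labelled ko, without overlap (−0.24, interval −0.73 to 0.24), and Psmg4 gave 0.03 (interval −0.38 to 0.43). The chaperones of the base gave 0.28 (Psmd5), 0.09 (Psmd9) and −0.10 (Psmd10). Members of the class therefore did not share a direction.

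The activators open the alpha ring without ATP, and Psmf1 inhibits the core. The class had 5 of 6 estimates negative and a median of −0.17 (−0.01 with library totals, and −0.07 without wt replicate 1 with TMM factors). Psme1 and Psme2 encode the interferon-inducible activator that favours peptide production. Psme1 was at 207, 157 and 146 CPM in wt and 146, 128 and 155 CPM in the libraries labelled ko (−0.25, interval −0.62 to 0.13), and Psme2 was at 125, 114 and 104 CPM and at 96.7, 86.7 and 106 CPM (−0.24, interval −0.54 to 0.06). Wt replicate 1 was the highest library for both, the groups overlapped, and without it the estimates were −0.09 and −0.18. Psme2b, a near copy of Psme2, was at 44.7, 37.5 and 35.3 CPM in wt and 32.6, 29.1 and 34.4 CPM in those labelled ko (−0.29, interval −0.62 to 0.05, adjusted p = 0.342). The groups did not overlap (−0.19 without wt replicate 1), but 68.7% of the 50-base stretches of Psme2b also occur in Psme2, so these genes cannot be counted apart with certainty.

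Psme4, a large nuclear activator, was the exception in direction, at 69.6, 101 and 118 CPM in wt and 110, 100 and 109 CPM in those labelled ko (0.14, interval −0.30 to 0.59). Its positive estimate rested on wt replicate 1, and without that library it was −0.05. Psme3, the nuclear relative of Psme1, gave −0.04 (interval −0.28 to 0.21) and the inhibitor Psmf1 −0.09 (interval −0.50 to 0.31). The partners Psme3ip1 and Psmc3ip gave −0.17 (interval −0.54 to 0.20) and 0.33 (interval −0.92 to 1.59), the latter from 26 to 120 counts.

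Levels can be compared between genes per length, as FPKM, the count divided by the length of the gene and by the library total. The 14 standard core subunits enter the particle in equal numbers. Their mean levels over the 6 libraries ran from 35.8 FPKM (Psma3) to 159 FPKM (Psmb4), a 4.45-fold range. The low end rests on the length behind the Psma3 values, 3325 bases, against 1591 for Psma7, the next longest. In CPM, Psma3 was above Psmb5 (wt means 108 and 85.6). The ATPases were closer together than the core subunits, from 35.5 FPKM (Psmc6) to 71.3 FPKM (Psmc3). The lid ranged from 26.9 FPKM (Psmd11) to 139 FPKM (Psmd8). Assembly factors were lower, from 5.33 FPKM (Psmd9) to 18.7 FPKM (Psmg4). No assembly factor reached the lowest lid subunit.

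Among the activators Psme1 (159 FPKM) and Psme2 (107 FPKM) were as abundant as core subunits, while Psme4 (13.3 FPKM) and the inhibitor Psmf1 (4.97 FPKM) were at the level of assembly factors. Psme1 ranked second after Psmb4, at 165 ± 28.0 FPKM in wt and 154 ± 3.13 FPKM in the libraries labelled ko (SD, n = 3). It did not differ from its neighbours Psmb4 (154 ± 13.5 and 164 ± 3.77 FPKM) and Psmb1 (149 ± 6.94 and 163 ± 12.4 FPKM) beyond this spread. The lowest were Psma8 (0.250 FPKM) and Psmc3ip (0.695 FPKM). The order of the 47 genes was nearly the same in both groups, with a Spearman correlation of 0.99 across genes and no gene moving by more than 4 ranks. Genes are not replicates, and both orders share gene lengths and the mapping.

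**Figure D4:**
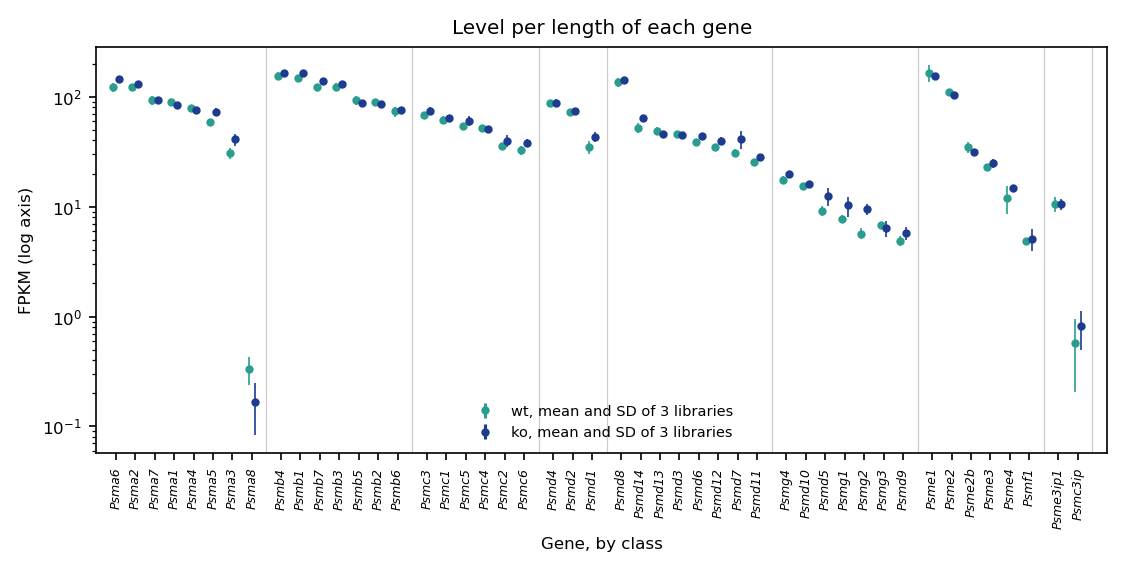
Level per length of each gene in FPKM (log axis), in the order of level within each role from alpha ring (left) through beta ring, ATPases, other base subunits, lid, assembly factors and activators with the inhibitor to interacting proteins (right). Points and lines are the mean and SD of 3 libraries, green for wt and blue for labelled ko. Core subunits lie between 35.8 and 159 FPKM apart from Psma8, and assembly factors at 18.7 FPKM or less.

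Since FPKM values carry the library scaling, the makeup of the family was also described as the share of its summed FPKM, which does not depend on it. The beta ring took 29.4% ± 0.565 of the sum in wt and 29.3% ± 0.375 in the libraries labelled ko (SD, n = 3), and the alpha ring 21.9% ± 0.345 and 22.3% ± 0.356. The activators and inhibitor took 13.8%, 12.0% and 12.5% in wt and 11.5%, 11.3% and 11.9% in those labelled ko. Each of the latter was below each wt library, the nearest pair being 12.0% and 11.9%. Assembly factors took 2.38%, 2.50% and 2.51% in wt and 2.75%, 2.99% and 2.58% in those labelled ko, and the lid 15.0%, 15.0% and 15.4% against 15.4%, 15.6% and 15.7%, each without overlap in the other direction. The ATPases and the other base subunits overlapped. These shares sum to a fixed total, so they do not move separately, and no test was made of them.

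Base composition and gene length varied with the estimates, and with the deviation of wt replicate 1 from the other wt libraries. That library is part of the wt group, so its deviation enters the difference between groups with the opposite sign. Opposite signs of the correlations below are therefore partly built in. Across the 46 members with a transcript in GENCODE M21, the log2 difference had a Spearman correlation of −0.39 and a Pearson correlation of −0.14 with the GC content of the transcript. Across 12970 genes these were −0.21 and −0.15. The log2 difference of wt replicate 1 from the other wt libraries had a Spearman correlation with GC content of 0.49 across the members (Pearson 0.29) and of 0.33 across all genes (Pearson 0.17). With the log2 gene length the members' Spearman correlations were 0.34 for the difference between groups and −0.36 for wt replicate 1 (Pearson 0.17 and −0.41). Across all genes they were weaker, at 0.1 and −0.14 (Pearson 0.09 and −0.13). The 23 members with a GC content at or under the median had a median difference of 0.01, with 14 positive estimates, and the 23 above it of −0.10, with 5. Of the 47 members, 27 were highest and 11 lowest in wt replicate 1. Shares over all genes were not computed for these counts or for the parts split by GC content. These genes share the same 6 libraries, so the correlations describe them and carry no test, and their part in the estimates was not tested.

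The interferon-inducible subunits replace the standard ones in the immunoproteasome and take over their proteolytic sites. Psmb8 was at 212, 156 and 147 CPM in wt and 134, 108 and 151 CPM in the libraries labelled ko, and Psmb10 at 108, 84.6 and 69.6 CPM and at 64.8, 48.7 and 76.8 CPM. Both overlapped between groups, with estimates of −0.39 ± 0.19 and −0.46 ± 0.22 (SE). Wt replicate 1 was the highest library for both, and without it the estimates were −0.21 and −0.29 (with library totals −0.25 and −0.32). Psmb9 was at 57.6, 44.7 and 45.3 CPM in wt and 36.6, 34.6 and 39.7 CPM in those labelled ko, without overlap (−0.41 ± 0.14 SE, adjusted p = 0.328, edgeR), and the estimate was −0.29 without wt replicate 1. None of the 3 passed the adjusted threshold.

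Ratios of these subunits to the standard subunit each replaces do not depend on the scaling of the library. The FPKM ratio of Psmb8 to Psmb5 was 1.61, 1.24 and 1.42 in wt and 1.32, 1.12 and 1.40 in the libraries labelled ko, which overlapped (exact permutation test, two-sided, p = 0.4). That of Psmb9 to Psmb6 was 0.520, 0.438 and 0.529 in wt and 0.389, 0.403 and 0.405 in those labelled ko, without overlap (0.496 ± 0.0501 against 0.399 ± 0.00863, exact permutation p = 0.1). That of Psmb10 to Psmb7 was 0.666, 0.471 and 0.467 against 0.374, 0.305 and 0.436, also without overlap (0.535 ± 0.114 against 0.372 ± 0.0652, exact permutation p = 0.1). With 3 libraries against 3, a p of 0.1 is the smallest that this test can give, and over the 3 ratios the Benjamini-Hochberg adjusted values were 0.15, 0.15 and 0.4. The Psmb5 counts are uncertain as stated above. Psmb9 overlaps the gene Tap1 of the count table and Psmb7 overlaps Nek6, so their counts may hold shared reads.

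**Figure D5:**
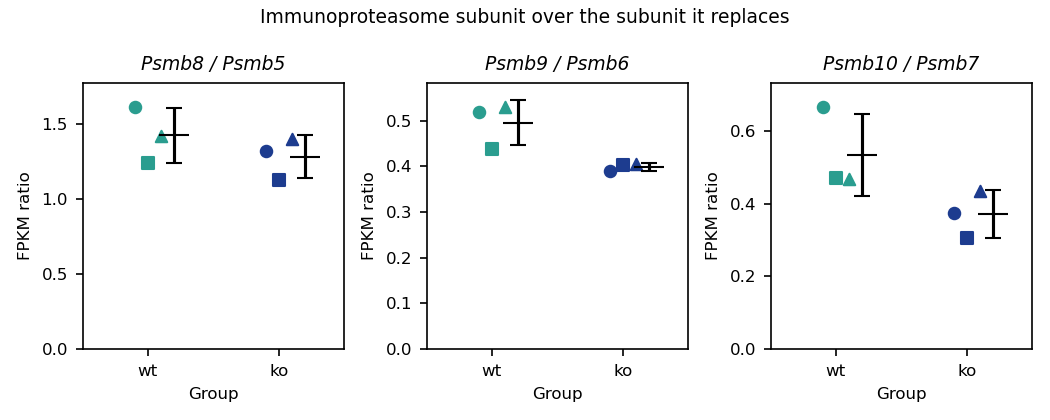
FPKM ratio of each interferon-inducible subunit to the standard subunit that it replaces, per library (points) with the mean and SD of 3 libraries (bars), green for wt and blue for labelled ko. For Psmb9 over Psmb6 and Psmb10 over Psmb7 each library labelled ko is below each wt library, whereas Psmb8 over Psmb5 overlaps.

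Among 30 other genes of the pathway, 0 had an adjusted p under 0.05 with edgeR, and 17 estimates were positive and 13 negative (median 0.02, and 0.17 with library totals, equal to 2 decimals to the median of all genes in both). At an unadjusted p under 0.05, 2 were higher, which is near the share over all genes (6.9%), and 0 were lower. These were Usp14 and Uchl5, deubiquitinases that bind the regulatory particle. Usp14 was at 38.0, 51.6 and 51.4 CPM in wt and 62.4, 58.0 and 63.9 CPM in the libraries labelled ko (0.39 ± 0.15 SE, adjusted p = 0.328). Uchl5 was at 16.5, 26.4 and 25.5 CPM in wt and 32.1, 31.0 and 31.4 CPM in those labelled ko (0.47 ± 0.19 SE, adjusted p = 0.328). For both genes the groups did not overlap and wt replicate 1 was the lowest library. Without that library the estimates were 0.25 and 0.28, and neither had an unadjusted p under 0.05.

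Pomp, which guides the assembly of the beta ring, was at 139, 119 and 107 CPM in wt and 108, 87.2 and 115 CPM in the libraries labelled ko (−0.24, interval −0.60 to 0.12). The ubiquitin receptor Adrm1, which recruits Uchl5, was at 66.1, 58.7 and 48.1 CPM and at 56.7, 59.9 and 51.3 CPM (−0.04, interval −0.38 to 0.30). Nfe2l1, the activator of subunit genes, was at 101, 97.4 and 91.8 CPM in wt and 101, 92.7 and 91.9 CPM in those labelled ko (−0.02, interval −0.27 to 0.23), so its groups overlapped almost completely. The 4 genes of the regulator list, Nfe2l1, Nfe2l2, Ddi2 and Ngly1, had a median of −0.24. Ddi2, the protease that releases Nfe2l1, was at 36.5, 18.3 and 21.4 CPM in wt and 16.1, 13.4 and 19.1 CPM in those labelled ko, with overlapping groups and wt replicate 1 highest (−0.65, adjusted p = 0.328, and −0.30 without that library). Nfe2l2, the regulator of the oxidative stress response, had an estimate of −0.46 (adjusted p = 0.329), and of −0.30 without ko replicate 2. The 12 genes of proteasome-bound proteins had a median of 0.15, the 8 shuttle and segregase genes of 0.00, and the 6 genes of ubiquitin and its activating enzymes of 0.08.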

How the data were processed

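RNA was sequenced in 3 libraries labelled wt and 3 labelled ko. The authors deposited raw whole-number read counts for each gene, together with FPKM values, which are those counts over a single gene length and the library total. The submitters' processing notes name the build mm10. The aligner, the counting tool and the test are not given in the sources used here, nor is whether counting used the strand, so a gene and an overlapping gene may share reads. All columns of per-sample values were mapped.

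Counts were tested in R 4.3.3 with edgeR 4.0.16 (filterByExpr, TMM factors, glmQLFit, glmQLFTest) and Benjamini-Hochberg adjustment over 13884 genes, with a threshold of 0.05. The study names no fit for these data. Standard errors are the absolute log2 difference divided by the square root of F. CPM are TMM-scaled, and log2 CPM used a prior count of 2. Alternatives used DESeq2 1.42.0, other factors, no filter, at least 10 counts in every library, limma 3.58.1 on log2 deposited FPKM after adding 1 or 0.1 (which understates changes of low genes), the replicate number as a block, and each library left out. Ratios were compared with scipy 1.17.1. The script was tested on simulated data.

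The labels call the libraries biological replicates but name no animals, and a figure legend of the study gives fewer mice per group than libraries, so p-values measure the spread between these libraries, which may be partly technical. No libraries agreed within sampling noise (chi-square per gene of 34.3 or more between replicates). A count of 0 allows up to 3 counts, or 0.0716 to 0.0845 CPM, for counting error only. Coordinates are those of GENCODE M21 (GRCm38), matched by symbol for 46 members. Promoter sequences are from RefSeq (GRCm38.p6).

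Members, lists and tests were chosen with earlier results of these data known. The members given per library were, by rule, those with the highest and lowest estimate in each role, the 5 with the smallest p, Psmb5, Psmb6, Psmb7, Psme2, Psme2b and any with under 10 counts in a library. Pathway genes were Nfe2l1, Pomp, Adrm1 and the 2 with the smallest p. Psma1, Psmg1 and Psme1 were added after their values were seen, as were Ddi2 and other genes named with an estimate only. Of 46 members with transcripts, 12 had more than 10% of their 50-base stretches in other genes, and not all are marked above. Among them are Psmb3 (55.8%), Psma5 (54.5%), Psmd2 (25.6%) and Psmg3 (21.8%), whose counts are also uncertain. By their coordinates, 12 of 46 members overlap another gene of the count table and may share reads with it. Besides Psma3, these include Psmb7 (Nek6), Psmd1 (Htr2b), Psmd13 (Sirt3), Psme1 (Emc9) and Psme2b (9930111J21Rik1 and Gm12185).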

Additional observations from a re-analysis of the deposited data

How the results depend on the processing

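No alternative of edgeR or limma called a member at an adjusted p under 0.05. DESeq2 called 1 member, Psmg2, without wt replicate 3 (log2 difference 0.62, adjusted p = 0.0487), 1 pathway gene, Nfe2l2, without ko replicate 3 (−0.67, adjusted p = 0.0481), and 0 of either in its other runs. With edgeR, 2112 genes had an unadjusted p under 0.05 and 0 an adjusted one, whereas DESeq2 called 108 with all libraries and 2 (without ko replicate 1) to 733 (without ko replicate 3) with a library left out.

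Scaling moved the medians of the members and of every class. With library totals alone the median log2 difference was 0.092 for the members, −0.011 for activators and inhibitor, 0.050 for the alpha ring, 0.24 for assembly factors, 0.15 for ATPases, 0.027 for other base subunits, 0.065 for the beta ring and 0.16 for the lid. In the same order, limma gave 0.094, −0.021, 0.052, 0.20, 0.14, 0.026, 0.066 and 0.15 for log2(FPKM + 1), and 0.095, −0.019, 0.052, 0.24, 0.15, 0.027, 0.066 and 0.16 for log2(FPKM + 0.1). FPKM values also carry library totals. Of the genes named by rule, 4 turned positive in the same 3 settings, while 15 of the 47 members changed sign with library totals. Psmd4 was at 0.0050, 0.0046 and 0.0046, Psmb6 at 0.048, 0.052 and 0.053, Nfe2l1 at 0.13, 0.12 and 0.13, and Adrm1 at 0.12, 0.11 and 0.12. Nfe2l1 was also at 0.015 with upper quartile factors and at 0.0075 among genes with 10 counts or more per library. Members higher at an unadjusted p under 0.05 numbered 6 with library totals (12.4% of all genes) and 7 with either limma fit (15.9% and 14.7% of all genes), and 1 (Psma8) was lower for log2(FPKM + 1), against 4.03%. Members without overlap numbered 10 higher and 3 lower with library totals and with both limma fits (18.6% and 6.87% to 6.88% of all genes), and 1 higher with RLE factors and with DESeq2 (12.4%).

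Leaving out 1 library in edgeR moved each median, with the lowest value without wt replicate 3. The ranges were −0.13 to −0.014 for the members, −0.25 to −0.066 for activators and inhibitor, −0.18 to −0.022 for the alpha ring, −0.0016 to 0.18 for assembly factors, −0.084 to 0.025 for ATPases, −0.19 to −0.080 for other base subunits, −0.16 to −0.021 for the beta ring and −0.056 to 0.026 for the lid. The highest value came without wt replicate 1, except for ATPases (wt replicate 2) and the lid (ko replicate 2). Members at an unadjusted p under 0.05 ran from 1 to 2 higher (1.81% to 9.79% of all genes) and from 0 to 1 lower (2.74% to 9.87%). Members without overlap ran from 2 to 10 higher (14.9% to 26.9% of all genes) and from 6 to 19 lower (14.5% to 22.8%). The 19, found without wt replicate 3, are 40.4% of the members, against 19.9% of all genes. Among the genes named by rule, estimates that changed sign were those of Psme4 (−0.046 to 0.30), Psmb7 (−0.024 to 0.12), Adrm1 (−0.17 to 0.065) and Nfe2l1 (−0.075 to 0.0074). Other members also changed sign, such as Psmg4 (−0.078 without wt replicate 3) and Psmf1 (0.023 without ko replicate 3). In DESeq2 without wt replicate 1, Psme4 was at −0.066, Psmc6 at −0.0033 and Adrm1 at 0.042. Without wt replicate 3 the medians were −0.15 for the members, −0.27 for activators and inhibitor, −0.095 for ATPases, −0.20 for other base subunits and −0.067 for the lid, and Psmb7 was at −0.036. In that run 4 of the 47 members were lower at an unadjusted p under 0.05 (11% of all genes). Without overlap, 23 of the 47 were lower, against 21.1% of all genes. Without wt replicate 2, 2 members were higher at an unadjusted p under 0.05 (12%) and 10 without overlap (22.7%). Without ko replicate 3, 2 were higher (8.52%) and 3 lower (12.8%) at an unadjusted p under 0.05, with 5 higher (26%) and 14 lower (23.8%) without overlap, and without ko replicate 1, 1 was higher without overlap (14.4%). The cause was not tested.

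The replicate numbers did not pair the libraries, since the correlations of deviations between same-numbered libraries were −0.24, 0.06 and −0.34. With the replicate block, 0 members passed, the members' median was −0.054 and Psmg2 was at 0.59 (adjusted p = 0.408). The tally over the alternatives covers the counts, the medians, Npm1, the immunoproteasome subunits and the genes named by rule. Of its values, 730 were taken as unchanged. For single genes this means the same direction and side of the threshold, and for medians a move within the spread between replicates. For counts it means a value equal to the main count or within 1.5-fold of it. Another 62 moved more, 23 changed sign and 1 passed only in the alternative.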
